A study of Mus musculus with 12 samples.

Results

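Muscleblind-like (Mbnl) and CUGBP Elav-like family (Celf) proteins are RNA-binding proteins that regulate alternative splicing, mRNA stability and translation. The 3 Mbnl genes (Mbnl1, Mbnl2 and Mbnl3) and the 6 Celf genes (Celf1 to Celf6) were taken by name, and these 9 genes were followed among the 55401 genes of the count tables. RNA came from the cerebellum of 12 mice, 1 library per mouse and 4 mice per group. The 4 WT DMSO mice were wild type. The 4 Het DMSO and the 4 Het Hit2 mice were heterozygous for an Atxn1 knock-in allele (Atxn1154Q/2Q in the spelling of the labels), a model of spinocerebellar ataxia type 1 in which the expanded CAG tract sits in the endogenous gene and is therefore present in every cell. All mice were injected into the peritoneum from 18 weeks of age, on 5 days in a row, followed by 2 days of rest and 5 further days of injections, and tissue was taken at 20 weeks. Het Hit2 mice received the compound Hit 2 at 25 mg/ml in DMSO and both other groups received DMSO alone (below 4 ml/kg in all), so that no group was free of DMSO and no wild-type group received the compound. Libraries are named below by the animal number in their labels. Gene-level read counts carry neither the length of the CAG tract nor the inclusion of single exons, so genotype labels were not checked here and splicing was not measured.

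Mbnl proteins bind RNA through zinc fingers and Celf proteins through RNA recognition motifs that favour GU-rich sequence. On many exons the families act in opposite directions, and during the maturation of muscle, heart and brain the balance shifts from Celf towards Mbnl activity. Both families are known from repeat RNA disease: in myotonic dystrophy, transcripts with expanded CUG repeats hold Mbnl proteins in nuclear foci while Celf1 protein accumulates, and Mbnl1 has also been found with expanded CAG RNA. Mbnl2 is regarded as the main Mbnl regulator of the brain, Celf1 and Celf2 are made in many tissues, and Celf3 to Celf6 are best known from the nervous system.

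The members are separate genes with different sequences, and the longest CAG runs of their transcripts ranged from 2 to 7 units. In the GENCODE M21 transcripts of the mouse genome GRCm38 the longest run of CAG units was 7 in Celf3, 4 in Celf5, 3 in Mbnl1, Celf1 and Celf2, and 2 in Mbnl2, Mbnl3, Celf4 and Celf6, read on the transcript strand. A run of at least 7 units was present in 0.372% of the 55141 genes searched. The Celf3 run lies in frame in the coding region of transcript Celf3-215, on the plus strand of chromosome 3, and is shown with its surroundings, coding bases 1105 to 1275 of 1482, because Celf3 is the member with the longest run. Capitals mark runs of 2 or more CAG units.
Celf3: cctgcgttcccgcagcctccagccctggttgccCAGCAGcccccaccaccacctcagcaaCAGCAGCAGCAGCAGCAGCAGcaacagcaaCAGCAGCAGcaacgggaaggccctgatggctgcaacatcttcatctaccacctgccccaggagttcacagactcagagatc

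Mbnl1 (chromosome 3) and Mbnl2 (chromosome 14), both on the plus strand, each carry an alternative exon of 54 bases, an exon known to govern the nuclear localisation of these proteins and to be regulated by Mbnl proteins themselves. It was present in 4 of 14 coding transcripts of Mbnl1 and in 3 of 6 of Mbnl2. The pair is shown because it is the part of these genes where autoregulation is known to act, and because it shows how alike they are. The exons were equal at 46 of 54 bases, and capitals in the Mbnl2 exon mark the 8 bases that differ.
Mbnl1: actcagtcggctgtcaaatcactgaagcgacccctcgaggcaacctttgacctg
Mbnl2: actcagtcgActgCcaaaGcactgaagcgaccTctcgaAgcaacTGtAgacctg
None of the 36 pairs of members shared a stretch of 50 bases in any transcript (reads were of 100 bases). Whether the 54-base exon was used more or less in any group is not visible in counts per gene.

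Depth ranged from 15855751 to 45265719 reads assigned to genes per library, and over all 12 libraries 101121 reads fell on Celf4, 100607 on Celf1, 78890 on Mbnl2, 74788 on Celf2, 53575 on Mbnl1, 30380 on Celf3, 21273 on Celf5, 3170 on Celf6 and 56 on Mbnl3. Library 411 (Het DMSO) stood apart from its tissue label: the summed level of 8 granule cell markers was 93.2 CPM (a gene's reads as a rate over the library's scaled total), against 3493 to 7344 CPM in the other 11 libraries, and that of 8 Purkinje cell markers was 575 CPM, against 3094 to 7155 CPM. Its midbrain markers, 6 genes of dopaminergic neurons, summed to 118 CPM against 1.31 to 28.0 CPM elsewhere, and its oligodendrocyte markers to 6734 CPM against 1309 to 5597 CPM. Library 410 (Het Hit2) held the lowest granule and Purkinje sums and the highest midbrain and oligodendrocyte sums of those 11. Library 409 (Het DMSO) had 0.0795% of its gene reads from mitochondrial genes, against 1.85% to 2.81% in the others, and its levels followed the GC content of transcripts, as given below. WT libraries 425 and 426 had Xist at 1393 and 1464 CPM, against at most 0.290 CPM in the other 10. Xist is made in female cells, so both comparisons with wild type set a group of mixed Xist status against groups without it. Library 425 alone had hindbrain Hox genes at a sum of 17.8 CPM, against at most 0.463 CPM. Differences between groups are therefore given with all libraries and, where they move, without 409 and 411. In whole tissue, fewer cells of a type and less RNA per cell cannot be told apart.

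In WT DMSO cerebellum, 8 of the 9 members were detected well and Mbnl3 was close to absent. Per kilobase of annotated exon, the order of levels was Celf1 (37.3 ± 2.22 CPM per kb, SD, n = 4), Celf4 (33.6 ± 1.19), Mbnl2 (20.4 ± 1.03), Celf3 (14.7 ± 1.40), Mbnl1 (9.48 ± 0.340), Celf2 (9.14 ± 0.220), Celf5 (8.06 ± 0.630) and Celf6 (1.94 ± 0.527). Over the 4 libraries the range of Mbnl1 overlapped that of Celf2, and the range of Celf2 overlapped that of Celf5. Within each of the 4 libraries, however, Mbnl1 was above Celf2 and Celf2 above Celf5. The ranges of every other pair of neighbours were apart. Summed within each family, Mbnl2 made up 68.2% ± 0.975 (SD, n = 4) of Mbnl reads per length and Mbnl1 31.8% ± 0.986, while Celf1 (35.6% ± 1.73) and Celf4 (32.1% ± 0.840) together made up most of Celf. The order depends on the length used. With the longest transcript (a length chosen after the data were seen), Celf4 was the highest at 72.3 CPM per kb, followed by Mbnl2 at 43.9 and Celf1 at 40.1, and Mbnl1 (31.4) and Celf2 (26.7) stood above Celf3 (23.9), while Celf5, Celf6 and Mbnl3 remained the lowest 3.

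**Figure D1:**
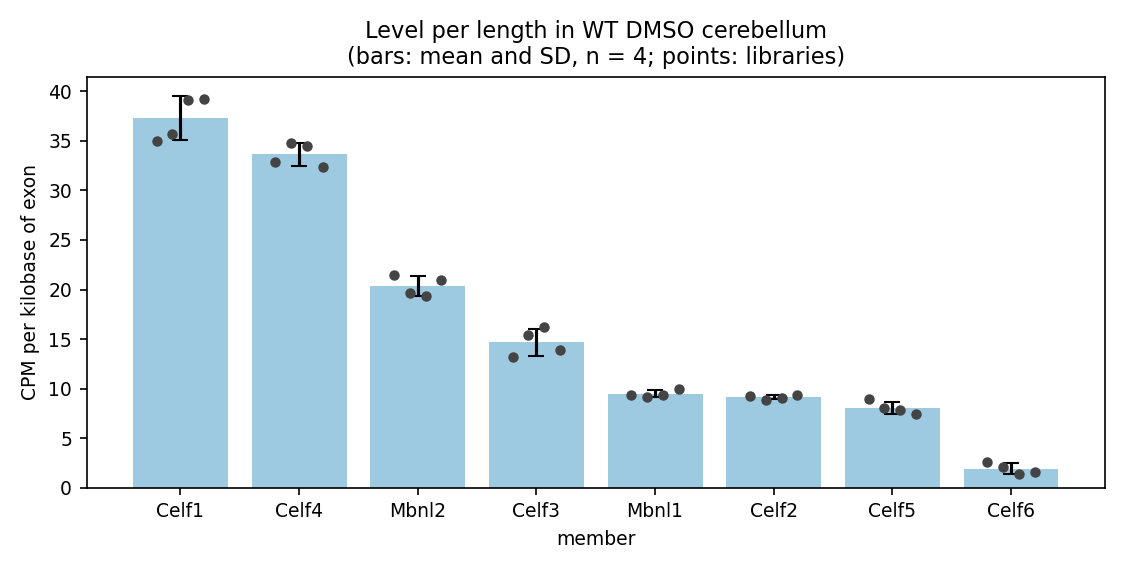
Level of the members per kilobase of exon in the 4 WT DMSO libraries (CPM per kilobase, linear axis from 0; bars are means with SD, points are libraries). Celf1 and Celf4 stood highest at 37.3 and 33.6, Mbnl2 was the highest Mbnl gene at 20.4, and Mbnl3, at under 0.05 in each library, is not drawn.

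Mbnl1, the best known target of sequestration by repeat RNA, was at 175, 172, 176 and 187 CPM in the WT DMSO libraries 413, 425, 426 and 431. In Het DMSO it was at 81.3 CPM in library 409 and at 164, 174 and 171 CPM in 411, 420 and 429, and in Het Hit2 at 172, 171, 166 and 157 CPM in 410, 421, 422 and 430. One library was thus low, far under every other, and the remaining 11 lay within a narrow band in which the groups overlapped. Apart from WT library 425, every wild-type library was above every heterozygous library. Relative to wild type, the log2 fold change in Het DMSO was -0.27 ± 0.20 (SE), with an adjusted p of 0.634 in edgeR's quasi-likelihood test and an exact two-sided permutation p of 0.0571. Without 409 and 411 it was -0.05 (95% interval -0.19 to 0.08). Het Hit2 against Het DMSO gave 0.18 ± 0.20 with all libraries -0.05 without these 2 and -0.03 without 409 alone, so the sign of that difference came from library 409. Het Hit2 against WT DMSO gave -0.09 ± 0.20 (exact two-sided permutation p 0.0571), and -0.10 (95% interval -0.21 to 0.01) without 409 and 411.

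Mbnl2, the Mbnl gene with the higher level in this tissue, was at 258, 235, 233 and 252 CPM in WT DMSO, at 188, 236, 245 and 251 CPM in Het DMSO (409, 411, 420 and 429) and at 262, 239, 242 and 235 CPM in Het Hit2. Apart from library 409 the groups covered the same range. The log2 fold change was -0.09 ± 0.11 for Het DMSO against WT DMSO (edgeR adjusted p 0.761) and 0.09 ± 0.11 for Het Hit2 against Het DMSO, and both signs turned without 409 and 411 (0.01 and -0.02). For Het Hit2 against WT DMSO the group means were 245 and 244 CPM and the 95% interval of the log2 difference was -0.25 to 0.25, which became -0.13 to 0.11 without 409 and 411.

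Mbnl3, best known from placenta and regenerating muscle, lies on the X chromosome and was counted at 4, 18, 0 and 2 reads in WT DMSO, 2, 6, 0 and 9 in Het DMSO, and 2, 2, 8 and 3 in Het Hit2. A count of 0 allows up to 0.0783 CPM in WT library 426 and 0.187 CPM in Het DMSO library 420. The gene did not pass the filter on low counts and no fold change is given. Of the 2 WT libraries with high Xist, one (425) held its highest count and the other (426) none.

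Celf1, the CUG-binding protein that accumulates in myotonic dystrophy, was at 296, 302, 330 and 331 CPM in WT DMSO. In Het DMSO it was at 346 CPM in 409, 137 CPM in 411, 312 CPM in 420 and 305 CPM in 429, and in Het Hit2 at 235 CPM in 410 and 299, 326 and 288 CPM in the others. The libraries 411 and 410, which held the fewest granule cell transcripts, had the 2 lowest levels. On the log2 scale the difference was -0.19 ± 0.24 for Het DMSO against WT DMSO and -0.04 without 409 and 411, 0.06 ± 0.24 for Het Hit2 against Het DMSO and -0.11 without them, and -0.13 ± 0.24 for Het Hit2 against WT DMSO. Without 411 alone the difference of Het DMSO from wild type was 0.05, and without 410 alone that of Het Hit2 from wild type was -0.06.

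Celf2, the closest relative of Celf1, was at 239, 230, 235 and 243 CPM in WT DMSO, a spread of 5.71 CPM (SD). In Het DMSO it was at 153.8 and 161 CPM in 409 and 411 and at 243 and 234 CPM in 420 and 429, and in Het Hit2 at 205 CPM in 410 and 239, 276 and 217 CPM in the others. The Het DMSO libraries thus formed a low pair, the 2 that stood apart, and a pair at the wild-type level. Relative to wild type, Celf2 in Het DMSO differed by -0.26 ± 0.16 (log2, edgeR adjusted p 0.619) with all libraries, and without that pair the group means were 238 and 237 CPM (95% interval of the log2 difference -0.23 to 0.23). For Het Hit2 against Het DMSO the 0.24 ± 0.16 seen with all libraries became -0.03. Het Hit2 against WT DMSO gave -0.02 ± 0.16.

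Celf3, Celf4, Celf5 and Celf6 are the members best known from neurons. Celf3 was at 72.004, 84.6, 88.6 and 76.0 CPM in WT DMSO, at 146, 56.1, 97.8 and 80.0 CPM in Het DMSO and at 86.2, 89.7, 98.9 and 73.3 CPM in Het Hit2. Its highest and its lowest level over all 12 libraries were in 409 and 411, within the same group. Of the reads at this gene 20.7% lay on the other strand, where Riiad1 overlaps it, a share of at most 1.01% for the other 7 tested members. On the log2 scale it differed by 0.24 ± 0.23 for Het DMSO against WT DMSO (0.13 without 409 and 411), -0.13 ± 0.23 for Het Hit2 against Het DMSO (-0.03 without them) and 0.12 ± 0.23 for Het Hit2 against WT DMSO. Leaving out only 1 of these libraries moved the first value in opposite directions, to -0.05 without 409 and to 0.45 without 411 (unadjusted p 0.0391, edgeR adjusted p 0.620), and the middle one to 0.16 and -0.35.

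Celf4, a neuronal member tied to seizures when lost in mice, varied little within each group, by at most 1.15 times between the lowest and the highest library. It was at 282, 299, 296 and 278 CPM in WT DMSO, 286, 299, 327 and 316 CPM in Het DMSO and 294, 303, 339 and 314 CPM in Het Hit2. Library 409 and library 411 were here within the range of the others. Its log2 fold change was 0.09 ± 0.10 for Het DMSO against WT DMSO, 0.15 (95% interval -0.01 to 0.30, edgeR adjusted p 0.894) without 409 and 411, and 0.11 ± 0.10 for Het Hit2 against WT DMSO (exact two-sided permutation p 0.0857). Het Hit2 against Het DMSO gave 0.02 ± 0.10, and -0.04 without them.

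Celf5 was at 59.6, 53.6, 52.1 and 49.8 CPM in WT DMSO, at 95.2, 77.5, 59.2 and 57.4 CPM in Het DMSO and at 63.0, 57.4, 67.7 and 61.0 CPM in Het Hit2. Apart from WT library 413, every wild-type library was below every heterozygous library. Het DMSO differed from wild type by a log2 fold change of 0.43 ± 0.16 (95% interval 0.09 to 0.77), with an unadjusted p of 0.0172, an adjusted p of 0.616 in edgeR and an exact two-sided permutation p of 0.0857. Leaving out 409 and 411 moved it to 0.11 ± 0.08. Het Hit2 against WT DMSO gave 0.21 ± 0.15 with all libraries (exact two-sided permutation p 0.0571) and 0.20 ± 0.07 without these 2 (unadjusted p 0.0149, edgeR adjusted p 0.346), a comparison whose group means hold neither of them. Het Hit2 against Het DMSO gave -0.22 ± 0.15, and 0.09 ± 0.08 without them.

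Celf6, the member at the lowest level of those tested, was at 9.46, 7.63, 5.20 and 5.86 CPM in WT DMSO. In Het DMSO it was at 31.4 CPM in 411 and at 10.4, 8.15 and 6.22 CPM in 409, 420 and 429, and in Het Hit2 at 18.1 CPM in 410 and 6.77, 5.77 and 10.5 CPM in 421, 422 and 430. The 2 highest levels were in the 2 libraries with the highest midbrain and the lowest granule cell marker sums. The log2 difference between Het DMSO and wild type was 1.00 ± 0.51 (edgeR adjusted p 0.616), the largest in size of any member in any comparison, 0.26 without 411 alone and 0.02 (95% interval -0.92 to 0.95) without 409 and 411. For Het Hit2 against Het DMSO the sign turned, from -0.45 ± 0.50 to 0.51 ± 0.43, and the difference was 0.10 once 410 was left out as well. Het Hit2 against WT DMSO stayed at 0.54 and 0.52, and at 0.12 without library 410.

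**Figure D2:**
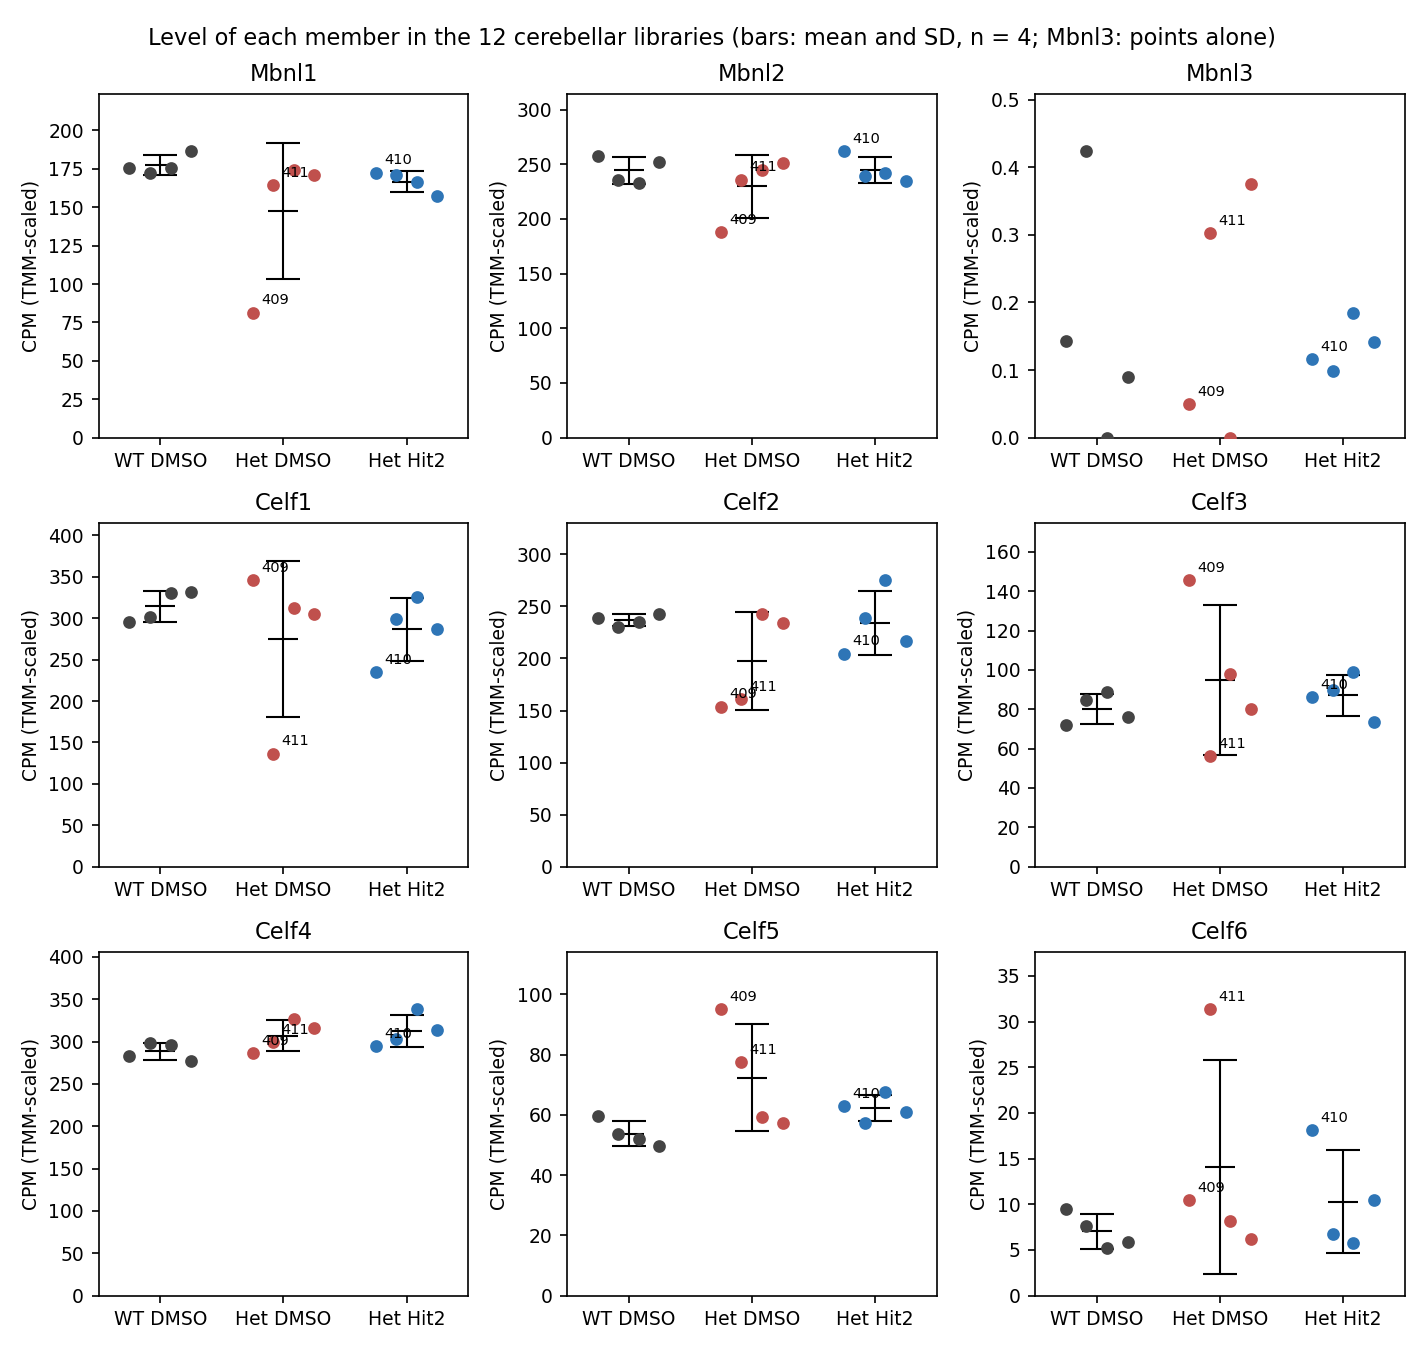
Level of each member in every library (CPM on TMM-scaled library sizes, linear axes from 0) by group; bars give the mean and SD of 4 libraries and numbers mark libraries 409, 410 and 411. Library 409 was low in Mbnl1 (81.3 CPM) and high in Celf3 (146 CPM), and library 411 was low in Celf1 (137 CPM) and high in Celf6 (31.4 CPM), while the wild-type libraries of each member but Celf6 (5.20 to 9.46 CPM) and Mbnl3 lay within 1.23 times of each other.

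Het DMSO against WT DMSO asks what the knock-in allele does, under vehicle alone. Of the 8 members tested, 0 passed an adjusted p of 0.05 in edgeR, against 0.00516% of the 19378 genes tested. DESeq2 called 0 members, against 0.222% of genes, and edgeR without 409 and 411 called 0, against 0.0895% of 20105 genes. At an unadjusted p under 0.05 there was 1 member, Celf5, against 7.11% of all genes, and the groups of 0 members were free of overlap, against 4.39% of all genes. The median log2 fold change was 0.00064 over the 8 members and 0.05 over all genes tested (0.01 and -0.0051 without 409 and 411), with both Mbnl genes below 0 and 4 of 6 Celf genes above it, and without 409 and 411 1 of 2 Mbnl genes below 0 and 5 of 6 Celf genes above it. The smallest permutation p that 4 against 4 libraries allow is 0.0286.

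Het Hit2 against Het DMSO asks what the compound does in the knock-in. The edgeR test called 0 of 8 members with all libraries and 0 without 409 and 411, and DESeq2 called 0, against 0% of all genes in each. At an unadjusted p under 0.05 there were 0 members, against 1.55% of genes, and 0 members had groups without overlap, against 1.03%. With all libraries, Mbnl1, Mbnl2, Celf1, Celf2 and Celf4 lay above 0 and Celf3, Celf5 and Celf6 below. Without 409 and 411 all of these signs but that of Celf3 were the opposite, in each case with a 95% interval that spans 0. The median was 0.04 over the members and -0.04 over all genes, and without 409 and 411 both signs turned (-0.03 and 0.0094). This comparison shares its Het DMSO libraries with the preceding one, so a low or high library there moves both in opposite directions.

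Het Hit2 against WT DMSO involves neither 409 nor 411 in its group means. It gave 0 of 8 members past the threshold in edgeR, against 0.00516% of genes, 0 in DESeq2, against 0.124%, and 0 in edgeR without 409 and 411, against 0.448%. At an unadjusted p under 0.05 there were 0 members, against 1.71%, and 0 members had groups free of overlap, against 6.32%. Without 409 and 411, 1 member, Celf5, had an unadjusted p under 0.05, against 9.5% of all genes tested, and 0 members did in Het DMSO against WT DMSO (5.83%) and in Het Hit2 against Het DMSO (3.72%). The median log2 fold change was 0.06 over the members and 0.02 over all genes tested. Without the WT libraries 425 and 426, which leaves 2 wild-type libraries, Celf3 was 0.23 in this comparison and 0.36 in Het DMSO against WT DMSO, and Mbnl2 was -0.06 and -0.15. Intervals were narrower once 409 and 411 no longer entered the shared estimate of spread: they then lay within a 1.5-fold difference in either direction for 7 of the 8 members, and not for Celf6 (-0.23 to 1.28). With all libraries they did so for 5 of the 8, and for 2 in Het DMSO against WT DMSO and 4 in Het Hit2 against Het DMSO, which both reached 7 without 409 and 411.

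**Figure D3:**
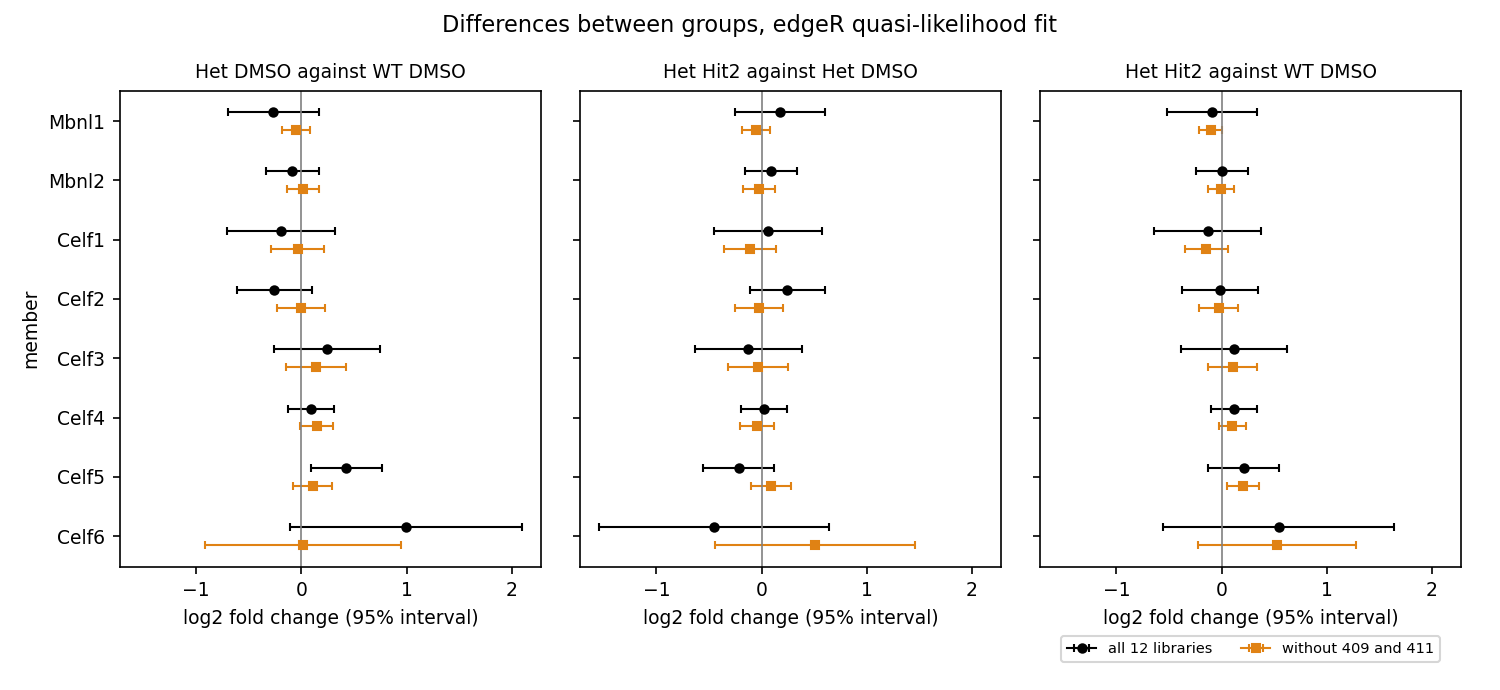
Log2 fold change of the 8 tested members with 95% intervals (edgeR) in the 3 comparisons, with all 12 libraries (black circles) and without 409 and 411 (orange squares). Intervals span 0 except for Celf5 in Het DMSO against WT DMSO with all libraries (0.09 to 0.77) and in Het Hit2 against WT DMSO without these 2 (0.05 to 0.35), and the widest belong to Celf6.

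The members' behaviour in library 409 is set out here beside the base composition of their transcripts. Set against the median of the 9 libraries other than 409, 410 and 411, log2 levels in 409 were -1.08 for Mbnl1 (GC content 39.7%), -0.63 for Celf2 (42.1%), 0.18 for Celf1 (46.6%), -0.37 for Mbnl2 and -0.08 for Celf4 (both 49.3%), 0.73 for Celf5 (55.2%), 0.78 for Celf3 (56.2%) and 0.62 for Celf6 (58.3%). Spearman's rho with GC content was 0.83 over the 8 members and 0.70 over 19346 genes, which share this 1 library. With genes split into 5 equal bins of GC content, the median deviation in 409 ran from -1.32 in the lowest bin to 0.62 in the highest. Mbnl1, Celf2, Celf3, Celf5 and Celf6 had the sign of the median of their bin, whereas Celf1, Mbnl2 and Celf4, of middle GC content, had the opposite one. In library 411 rho was 0.48 over the members and 0.07 over all genes, and the deviations were -1.16 for Celf1, -0.59 for Celf3, -0.57 for Celf2, 0.43 for Celf5 and 2.20 for Celf6. Library 410 deviated the same way for Celf1 (-0.38), Celf2 (-0.22) and Celf6 (1.41), by less, but not for Celf3 (0.03), with a rho of 0.76 over the members and 0.04 over all genes.

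**Figure D4:**
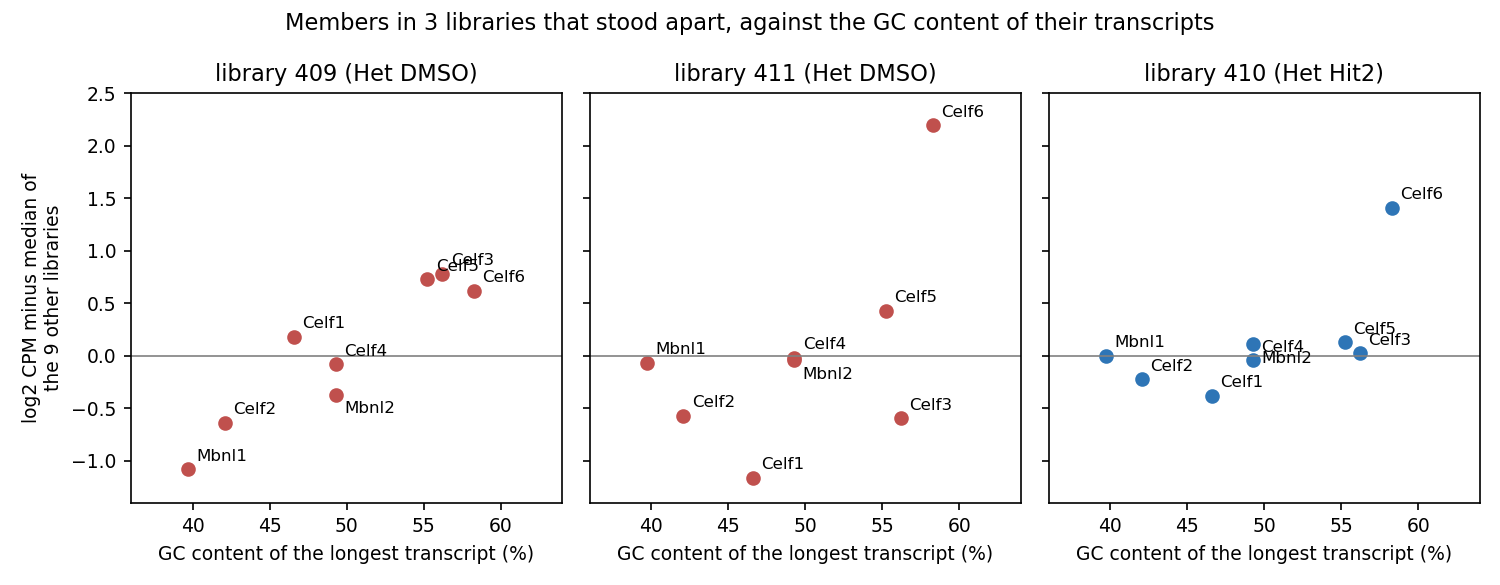
Log2 CPM of each member in libraries 409, 411 and 410 minus its median over the 9 other libraries, against the GC content of its longest transcript (%). In 409 the members run from Mbnl1 (-1.08) at low GC content to Celf3 (0.78) at high GC content, and in 411 and 410 Celf1 is lowest and Celf6 highest.

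The ratio of Mbnl to Celf reads, each summed per kilobase of exon, is given as a description of the balance between families at the level of RNA. It was 0.303, 0.275, 0.266 and 0.298 in WT DMSO, 0.161, 0.325, 0.262 and 0.282 in Het DMSO (409, 411, 420 and 429) and 0.310, 0.273, 0.246 and 0.268 in Het Hit2. The lowest and the highest ratio of all 12 were both in Het DMSO, in 409 and 411, and the other 2 libraries of that group lay near the wild-type ones. The ratio of Mbnl2 to Mbnl1 was 2.15 ± 0.100 (SD, n = 4) in wild type and 2.29 ± 0.0812 in Het Hit2, and in Het DMSO it was 3.61 in 409 and 2.20 to 2.30 in the others. The ratio of Celf1 to Celf2 was 4.07 ± 0.222 in WT DMSO and 3.76 ± 0.242 in Het Hit2, and in Het DMSO it was 6.90 in 409, 2.60 in 411, and 3.94 and 4.00 in 420 and 429. Within Celf, Celf6 took 9.88% in 411 and 5.00% in 410, against 1.33% to 2.78% in the other 10 libraries.

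**Figure D5:**
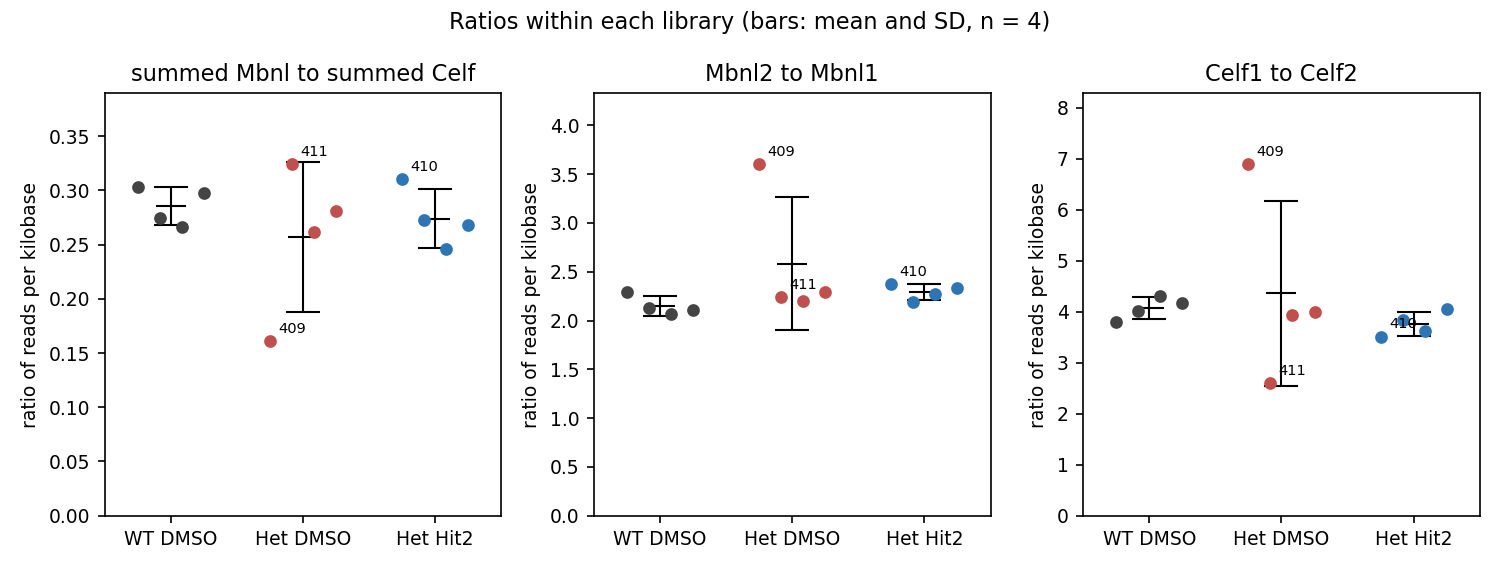
Ratio of summed Mbnl to summed Celf reads, of Mbnl2 to Mbnl1 and of Celf1 to Celf2, per kilobase of exon, in each library (linear axes from 0; bars: mean and SD of 4 libraries). Library 409 had the lowest Mbnl to Celf ratio (0.161) and the highest of the other ratios (3.61 and 6.90), and the Het Hit2 libraries had an Mbnl to Celf ratio of 0.246 to 0.310.

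Other genes of the same biology were read from lists. Of 22 other splicing regulators of neurons 21 were tested, and 0 passed the threshold in any comparison. The smallest p-values belonged to Khdrbs3, a STAR family splicing factor, in Het DMSO against WT DMSO (0.92 ± 0.49, edgeR adjusted p 0.616, and 0.09 without 409 and 411), Ptbp2, the neuronal polypyrimidine tract binding protein, in Het Hit2 against Het DMSO (0.25 ± 0.19, adjusted p 0.898, and -0.04 without them), and Rbfox3, the neuronal antigen NeuN, in Het Hit2 against WT DMSO (-0.40 ± 0.39, adjusted p 1.00). The list's median log2 fold changes were -0.01, -0.0035 and 0.03 in the 3 comparisons, beside 0.05, -0.04 and 0.02 over all genes tested, and 0.03, -0.03 and 0.02 without 409 and 411.

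Of 19 repeat RNA genes and binding proteins, all tested, 0 passed in any comparison with all libraries. Mid1, a ubiquitin ligase known to bind CAG repeat RNA, had 20.4 ± 2.83 CPM (SD, n = 4) in wild type, 11.9 ± 4.36 in Het DMSO and 13.3 ± 1.01 in Het Hit2, a log2 difference of -0.79 ± 0.24 (edgeR adjusted p 0.616, and -0.48 without 409 and 411) for Het DMSO and -0.62 ± 0.24 (adjusted p 1.00) for Het Hit2 against WT DMSO. The latter was -0.63 without 409 and 411 (edgeR adjusted p 0.0761). Dmpk, the gene that carries the repeat in myotonic dystrophy type 1, had the smallest p in Het Hit2 against Het DMSO (-0.32 ± 0.15, adjusted p 0.898, and -0.13 without 409 and 411). In the fit without these libraries, which called 0.448% of all genes in Het Hit2 against WT DMSO, 1 of the 19 passed there: Eif2ak2, which encodes the double-stranded RNA sensor PKR and is named after its values were seen. It was at 7.21, 6.41, 6.56 and 7.16 CPM in WT DMSO, 2.27, 10.5, 9.96 and 11.5 CPM in Het DMSO (409 first) and 11.8, 11.7, 8.90 and 10.98 CPM in Het Hit2. All heterozygous libraries but 409 were above all wild-type ones, and the log2 fold change of Het Hit2 against WT DMSO was 0.65 ± 0.11 (edgeR adjusted p 0.0431), beside 0.67 with an adjusted p of 1.00 when all libraries entered the fit.

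Of 19 genes with exons known to answer to Mbnl or Celf proteins, all tested, 0 passed in any comparison. Kcnma1, a potassium channel gene, had 371 ± 27.2 CPM (SD, n = 4) in wild type and 239 ± 42.9 CPM in Het DMSO, a log2 difference of -0.63 ± 0.15 (edgeR adjusted p 0.535), and -0.50 without 409 and 411 (adjusted p 0.208). Dgkh, a diacylglycerol kinase gene, was at 168 ± 22.8 CPM in WT DMSO and 110 ± 16.5 CPM in Het Hit2 (-0.60 ± 0.20, adjusted p 1.00, and -0.62 with an adjusted p of 0.0865 without 409 and 411). Camk2d, a calcium/calmodulin kinase subunit, had the smallest p in Het Hit2 against Het DMSO (0.39 ± 0.18, adjusted p 0.898, and 0.12 without these libraries). At an unadjusted p under 0.05 there were 4, 1 and 2 of these 19 genes in the 3 comparisons in the order above, against 7.11%, 1.55% and 1.71% of all genes tested, and these are levels of whole genes, which say nothing of the exons. Purkinje cell marker sums were 6853 to 7155 CPM in WT DMSO, 4546 and 5382 CPM in Het DMSO without 409 and 411 (5983 and 575 CPM in these), and 3094 to 6031 CPM in Het Hit2, the lowest in 410. The Purkinje gene Pcp4 passed the threshold in Het Hit2 against WT DMSO without 409 and 411 (-0.83 ± 0.13, edgeR adjusted p 0.0264), but not with all libraries (-0.82, adjusted p 1.00). Astroglia marker sums (8 genes) were 3494 to 3911 CPM in WT DMSO, 2508 to 3043 CPM in all 4 Het DMSO libraries and 2759 to 2935 CPM in Het Hit2, with Aldoc, a glycolytic enzyme gene of astroglia and of a subset of Purkinje cells, past the threshold in the same fit (-0.84 ± 0.14, adjusted p 0.0377) and not with all libraries (-0.82, adjusted p 0.387). Granule cell marker sums were 5342 to 6058 CPM in WT DMSO. In Het Hit2 they were 3493, 5035, 5804 and 3805 CPM in 410, 421, 422 and 430. In Het DMSO they were 7344, 93.2, 5355 and 5205 CPM in 409, 411, 420 and 429. The part of these marker levels in the differences of the members, of Eif2ak2, Mid1, Kcnma1 and Dgkh between genotypes was not tested.

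By rank correlation of levels over libraries (Spearman's rho, 10564 other genes with a mean of at least 10 CPM), the gene most like each member was Zfp35 for Mbnl1 (0.90), Cul4b for Mbnl2 (0.92), 5830417I10Rik for Celf1 (0.99), Akirin2 for Celf2 (0.98, tied with 1 other gene), Hecw2 for Celf3 (0.98), Macrod2 for Celf4 (0.83), Atp6v1b2 for Celf5 (0.98) and Dapk1 for Celf6 (0.99) over all 12 libraries. Over the 10 libraries other than 409 and 411 it was Ube2e1 for Mbnl1 (0.90), Eloc for Mbnl2 (0.96), Ino80d for Celf1 (0.99), Akirin2 for Celf2 (0.98), Nxf1 for Celf4 (0.98), Map2 for Celf5 (0.99) and Rpl10 for Celf6 (0.99, 3 genes tied). Akirin2 for Celf2 was the only such gene named both times. All genes of a library share its depth, its cell makeup and, in 409, the relation of levels to base composition, and these values are the highest of 10564 each. Among the members themselves rho ran from -0.88 (Celf1 and Celf6) to 0.71 (Celf1 and Celf2) over these 10 libraries.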

How the data were processed

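Per the labels, cerebellar RNA of 12 mice was made into directional libraries depleted of ribosomal RNA from 500 ng of RNA with 13 cycles of amplification, and sequenced as pairs of 100 bases. Per the submitters' processing notes the tools were STAR 2.7.10a and FastQC 0.11.9 and the genome build was GRCm39 (mm39). The authors deposited, for each gene, unnormalized read counts as written by the aligner, and the annotation release is not given in the sources used here. Counts on the strand that held most gene reads were used (5.21% to 6.47% lay on the other strand). Reads unassigned to a gene (44.7% to 54.6%), multimapping, unmapped or ambiguous stayed out of library sizes. Symbols were matched to GENCODE M21 of GRCm38 for 55141 of 55401 identifiers (260 did not match); since the builds differ, no coordinates are printed, and lengths, GC content and sequences are those of M21.

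Counts were tested with edgeR 4.0.16 in R 4.3.3: filterByExpr, TMM scaling, 1 quasi-likelihood fit of all 12 libraries with 1 coefficient per group, two-sided tests, and Benjamini-Hochberg adjustment over all genes with a threshold of 0.05. Standard errors were derived from the F statistic. CPM are on TMM-scaled library sizes, log2 CPM has a prior count of 2, and limits for a count of 0 correspond to 3 counts per library and cover counting error only. Exact permutation tests ran over the 70 assignments of 8 libraries. Alternatives were DESeq2 1.42.0, limma 3.58.1 with library quality weights, RLE and upper-quartile factors, no filter or one at a mean of 50 reads, counts of both strands, a fit of the 2 compared groups alone, and leaving out libraries. Leaving out 409, 410 and 411 together and the length of the longest transcript were chosen after the data were seen.

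Members, gene lists and tests were chosen with earlier results of these data known. The rule named all members, in each list the gene with the smallest p per comparison and any gene past the threshold (marker lists are given as sums, and of their genes only Aldoc and Pcp4 are named), and per member the gene with the highest rank correlation. For Celf3 over 10 libraries that gene is not reported here. The labels give 1 animal number per library. They do not state further whether animals shared a litter or cage, so p-values measure the spread between these animals.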

Additional observations from a re-analysis of the deposited data

Results flagged for a closer look

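Of the 24 sets of 4 libraries examined (8 tested members in 3 groups), 2 had 1 library set apart from the other 3 by a gap that took up nearly the whole range, where chance gives about 1.2. Mbnl1 was at 81.3 CPM in Het DMSO library 409, with the next library at 164 CPM, a gap of 0.898 of the range. Celf6 was at 31.4 CPM in Het DMSO library 411, with the next at 10.4 CPM, a gap of 0.832 of the range. Library 409 is the one with 0.0795% mitochondrial reads, and library 411 the one with granule cell markers at 93.2 CPM. Both sit in the same group of 4.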

How the results depend on the processing

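No paired analysis was possible because the animal numbers of the libraries do not recur between groups. The number of members past the threshold was 0 in each of the 3 comparisons with all libraries and in all 23 alternatives, with the smallest adjusted p of any member over them at 0.337 (Het DMSO against WT DMSO), 0.624 (Het Hit2 against Het DMSO) and 0.288 (Het Hit2 against WT DMSO). Over these alternatives, 0 to 98 genes of all tested were called in the first comparison and 0 to 221 in the last (the most with limma and library quality weights, of 19378), and 0 in Het Hit2 against Het DMSO, where 87 to 1201 genes had an unadjusted p under 0.05. Signs of single members, none of which passed the threshold, turned in 7, 28 and 17 of 184 recomputed log2 fold changes in these comparisons.

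With limma and library quality weights, Mbnl2 in Het DMSO against WT DMSO was 0.033, and in Het Hit2 against Het DMSO Mbnl1 was -0.031, Mbnl2 -0.035, Celf1 -0.035, Celf3 0.00062, Celf4 -0.044, Celf5 0.041 and Celf6 0.035, while against WT DMSO Het Hit2 gave -0.0024 for Mbnl2 and 0.015 for Celf2. Without 409 and 411, Mbnl2 and Celf2 were 0.012 and 8.7e-05 in Het DMSO against WT DMSO, Mbnl2 was -0.011 in Het Hit2 against WT DMSO, and in Het Hit2 against Het DMSO Mbnl1 was -0.051, Mbnl2 -0.023, Celf1 -0.11, Celf2 -0.027, Celf4 -0.044, Celf5 0.092 and Celf6 0.51. Without 409, 410 and 411 together, Mbnl2 and Celf2 were 0.020 and 0.0084 in Het DMSO against WT DMSO and -0.033 and 0.044 in Het Hit2 against WT DMSO, and in Het Hit2 against Het DMSO Mbnl1 was -0.064, Mbnl2 -0.054, Celf1 -0.021, Celf4 -0.013, Celf5 0.092 and Celf6 0.095. Mbnl2 in Het Hit2 against WT DMSO, 0.0018 with all libraries, was also -0.0089 with RLE factors, -0.0099 with upper-quartile factors, -0.0089 in DESeq2, -0.016 with no filter and -0.061 without libraries 425 and 426.

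Leaving out 1 library at a time turned the sign of 9 results. A result here is a member in a comparison, however many of these fits turned it. Celf1 ranged from -0.33 to 0.048 and Celf3 from -0.047 to 0.45 in Het DMSO against WT DMSO. In Het Hit2 against Het DMSO, Mbnl1 ranged from -0.026 to 0.27, Celf1 from -0.19 to 0.19, Celf3 from -0.35 to 0.16, Celf4 from -0.017 to 0.056 and Celf6 from -0.88 to 0.27. In Het Hit2 against WT DMSO, Mbnl2 ranged from -0.041 to 0.027 and Celf2 from -0.10 to 0.036. The cause of these turns was not tested.

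Without division by length the Mbnl to Celf ratio was 0.430, 0.402 and 0.417 in WT DMSO, Het DMSO and Het Hit2, against 0.286, 0.257 and 0.274 per length. Without 409 and 411 the Het DMSO group rests on 2 libraries.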
